A study of Mus musculus with 16 samples.

Results

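Messenger RNA of 10 immediate early genes of neuronal activity was followed in mouse primary cortical neurons subjected to oxygen-glucose deprivation (OGD), with or without the antidepressant tianeptine (TIA). The 10 genes were chosen by name from what is known of activity-dependent transcription, with earlier results of these data known. They were Arc, Homer1, Npas4, Egr1, Egr2, Egr3, Egr4, Nr4a1, Nr4a2 and Nr4a3. All 10 were listed among the 53679 gene symbols of the deposited isoform table, and all 10 passed the filter on low values in each comparison. Their values are FPKM (fragments scaled to transcript length and library size), summed over the isoforms of a gene, so that levels of different genes can be set side by side per length. Short isoforms can weigh heavily in such a sum, so a ranking of genes by it is a rough one.

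The data comprised 16 cultures of cortical neurons from wild-type mouse embryos at embryonic day 15, with 4 cultures in each of 4 groups. CONTROL-VEH cultures received vehicle and no OGD, and CONTROL-TIA cultures received 10 µM TIA and no OGD. OGD-VEH cultures received vehicle and 3 h of OGD, a model of ischemic injury in which oxygen and glucose are withdrawn together, and OGD-TIA cultures received 10 µM TIA and 3 h of OGD. TIA or vehicle was given at day 8 in vitro, 24 h before OGD or the sham change of medium at day 9, and RNA was taken 6 h after OGD, so that all values describe a single time of recovery. The labels call the vehicle cultures untreated, while the methods name a vehicle. Whole-culture RNA was sequenced, so that fewer neurons and less RNA per neuron cannot be told apart in any value below. The labels state 18 to 23 M aligned reads per library, and the depth estimated from the values was 19.7 to 25.5 M reads.

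Immediate early genes are transcribed within minutes of calcium entry through synaptic receptors and voltage-gated channels, without new protein synthesis, when kinases such as MAPK and CaMK act on CREB, SRF with its Elk partners, and MEF2 at their promoters. Most of their transcripts are short-lived, so that levels hours after a stimulus can be back at, above or below the starting level. In cortical neurons Arc and the short form of Homer1 act at the synapse, whereas Npas4, the EGR zinc finger proteins and the NR4A orphan nuclear receptors are transcription factors that in turn set later genes.

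Of the 10 genes, 7 had a promoter window in the RefSeq table of GRCm38.p6 that was searched here, and Arc, Egr1 and Egr3 were not searched. The motifs searched, on both strands and in 300 bases around each start, were TGACGTCA (the cyclic AMP response element, bound by CREB), its TGACG core, the CArG box of SRF, TGANTCA (the AP-1 site), GCGNGGGCG (the EGR site) and AAAGGTCA (the NR4A monomer site). TGACG lies at either end of TGACGTCA, so matches of these motifs overlap. Stretches upstream of a RefSeq start of 5 genes are shown. All 7 genes searched held the TGACG core in at least 1 window, and Egr2 was the only 1 of the 7 with a match of the CArG box. The Nr4a1 and Egr2 stretches lie within the spans of their genes, which have other annotated starts. All 250 bases before the Npas4 start, with the stretch shown, lie within annotated exons. Capitals mark matches of any of the motifs (CGTCA is TGACG on the other strand), and the letters read 5′ to 3′ along the gene.
Nr4a1, chr15:101266596-101266845, plus strand: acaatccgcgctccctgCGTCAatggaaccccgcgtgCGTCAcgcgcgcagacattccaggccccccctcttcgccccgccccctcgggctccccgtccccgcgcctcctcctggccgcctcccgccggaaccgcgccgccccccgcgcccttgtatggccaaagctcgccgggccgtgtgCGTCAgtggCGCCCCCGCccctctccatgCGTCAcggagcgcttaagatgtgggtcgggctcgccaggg
Nr4a2, chr2:57124004-57124253, minus strand: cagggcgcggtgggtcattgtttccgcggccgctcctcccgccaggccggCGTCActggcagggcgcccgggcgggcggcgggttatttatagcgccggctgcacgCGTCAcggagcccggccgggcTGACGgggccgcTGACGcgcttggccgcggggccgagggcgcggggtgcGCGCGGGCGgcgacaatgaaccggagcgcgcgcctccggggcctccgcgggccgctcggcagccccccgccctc
Nr4a3, chr4:48045055-48045152, plus strand: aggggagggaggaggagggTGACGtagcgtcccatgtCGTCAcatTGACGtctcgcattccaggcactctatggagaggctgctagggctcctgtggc
Egr2, chr10:67537619-67537868, plus strand: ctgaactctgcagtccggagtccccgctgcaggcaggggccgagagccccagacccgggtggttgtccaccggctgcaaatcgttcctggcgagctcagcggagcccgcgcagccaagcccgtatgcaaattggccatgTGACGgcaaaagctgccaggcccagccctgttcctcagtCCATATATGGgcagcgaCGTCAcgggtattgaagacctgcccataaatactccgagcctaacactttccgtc
Npas4, chr19:4990131-4990155, minus strand: ttcgaCGTCAcgggaTGACGtcgga

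The TGACG core was found in 9 of the 12 windows of the 7 genes and in at least 1 window of each gene, beside 20.8% of all 32851 windows of this length. Nr4a1, Nr4a2 and Nr4a3 each held 4 matches, of which 1 of Nr4a3 lies outside the stretch shown. Homer1 held 3 in 1 of its 2 windows, and Npas4 and Egr4 held 2. Egr2 held 2 in 3 of its 5 windows. These 3 windows overlap and hold the same 2 matches, so the count of 9 windows includes them 3 times. The CArG box, present in 1.63% of all windows, was found in 4 of the Egr2 windows, which in part overlap each other and hold 2 different boxes, of which 1 is shown, and in no other gene searched. The EGR site, present in 5.55%, was found once each in Nr4a1 and Nr4a2. No window of the 7 genes held TGACGTCA (1.79% of all windows), TGANTCA (7.81%) or AAAGGTCA (1.51%). These are matches of letters and were not tested for binding.

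OGD without TIA was compared first, as OGD-VEH against CONTROL-VEH. A gene was called at an adjusted p (padj) of at most 0.05 with a log2 fold change of at least 1 in size. The adjusted p came from limma with Benjamini-Hochberg adjustment over all genes tested. These are the thresholds of the study, which used them with DESeq2, a test on counts, and reported other numbers of called genes. Of the 10 genes 1 was called, Egr3, which fell, beside 4.09% of the 16346 genes tested and 1.68% called as lower. Egr3 and Nr4a3 were lower in all 4 OGD-VEH cultures than in any CONTROL-VEH culture, as 9.95% of all genes were. The other 8 genes overlapped between the groups. The median log2 fold change of the 10 genes was -0.17, beside 0.10 for all genes tested. Fold changes throughout are on the log2(FPKM + 0.1) scale, which understates changes of genes near 0.

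**Figure D1:**
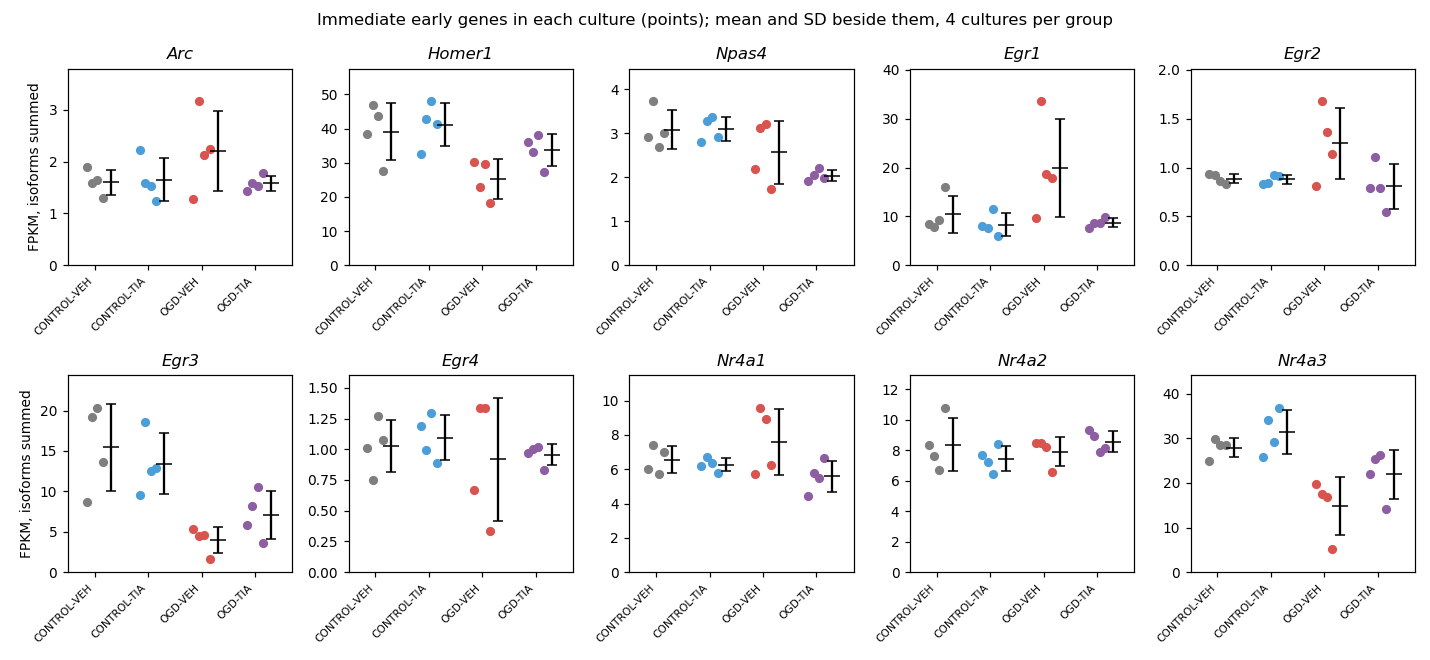
Level of each of the 10 genes in FPKM (y axis, from 0, own scale per gene) in the 4 cultures of each group (points), with mean and SD beside them. Egr3 in OGD-VEH (1.57 to 5.33 FPKM) and Nr4a3 in OGD-VEH (5.23 to 19.7 FPKM) lie below every control culture, and 3 of the 4 OGD-VEH cultures lie above all controls for Egr1 and Egr2.

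Among the EGR factors, zinc finger proteins that bind the same GC-rich site, Egr1 and Egr3 were the most abundant. Egr3 fell, and Egr1 had a positive log2 fold change that was not called. Egr3 (chr14:70077203-70082614, plus strand) measured 8.66, 19.1, 20.3 and 13.7 FPKM in CONTROL-VEH cultures 1 to 4 and 5.33, 4.43, 4.55 and 1.57 FPKM in OGD-VEH cultures 9 to 12. The groups did not overlap, and the highest OGD-VEH culture stood below the lowest control. Its log2 fold change was -1.99 (SE 0.41, padj = 0.0372, limma), from a mean of 15.4 ± 5.36 to 3.97 ± 1.65 FPKM (SD, n = 4). The call rests on all cultures together: with 1 culture left out it was lost in 7 of 8 fits, those without each of CONTROL-VEH 1, 2, 3 and 4 and OGD-VEH 10, 11 and 12 (padj from 0.0568 to 0.104, limma), and held without OGD-VEH 9 (padj = 0.0118), while the log2 fold change ranged from -2.24 to -1.60. It was also lost when genes of low values were kept in the test (padj = 0.0765, limma).

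The Egr3 sum holds 4 estimated isoforms, of which Egr3-203, a processed transcript of 489 bases with no annotated coding sequence, was listed at 0, 7.44, 8.35 and 4.6 FPKM in the CONTROL-VEH cultures and at 0 in all 4 OGD-VEH cultures. Without Egr3-203, an alternative chosen after the values were seen, Egr3 measured 10.3 ± 1.72 FPKM in CONTROL-VEH cultures and 3.97 ± 1.65 FPKM in OGD-VEH (SD, n = 4), and the log2 fold change was -1.47 (SE 0.36, padj = 0.0449, limma). Egr3-201 and Egr3-204 are the coding isoforms, of 349 and 387 codons. Egr3-201 was at 0.68, 1.03, 1.23 and 1.75 FPKM in CONTROL-VEH cultures and at 0.202, 0.112, 0.116 and 0.04 FPKM in OGD-VEH, without overlap. Egr3-204 was at 1.16, 4.87, 5.81 and 3.32 FPKM in CONTROL-VEH cultures and at 2.68, 2.24, 1.08 and 0.66 FPKM in OGD-VEH, with overlap at CONTROL-VEH 1. Egr3-202, annotated as a retained intron, was the highest isoform in 8 of the 16 cultures and was at 5.37 ± 1.22 FPKM in CONTROL-VEH against 2.18 ± 1.03 FPKM in OGD-VEH (SD, n = 4), without overlap. None of 28 isoforms tested of the 10 genes was called on its own in this comparison, beside 0.141% of the 53087 isoforms tested.

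Egr1, the best known of the family and a target of SRF, measured 8.46, 7.74, 9.33 and 16.03 FPKM in CONTROL-VEH cultures and 9.58, 33.6, 18.6 and 17.8 FPKM in OGD-VEH. OGD-VEH cultures 10, 11 and 12 lay above all controls, and OGD-VEH 9 lay among them. The log2 fold change of 0.86 (SE 0.38, 95% confidence interval 0.00 to 1.72, padj = 0.144, limma) was not called. Without OGD-VEH 9 it was 1.16 with padj = 0.0311 (limma), which passed both thresholds, and without OGD-VEH 10 it was 0.56 with padj = 0.298 (limma), the ends of its range with 1 culture left out. Nearly all Egr1 signal came from Egr1-202, at 5.94 to 32.4 FPKM over the 16 cultures, while Egr1-201 reached at most 1.19 FPKM.

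Egr2, better known from Schwann cells and the hindbrain and induced in neurons with Egr1, was low, at 0.932, 0.919, 0.861 and 0.836 FPKM in CONTROL-VEH cultures and 0.813, 1.68, 1.36 and 1.14 FPKM in OGD-VEH. It had the pattern of Egr1, with OGD-VEH 10, 11 and 12 above all controls and OGD-VEH 9 below them, and its log2 fold change was 0.41 (SE 0.26, padj = 0.291, limma). Egr4, a neuronal member of the family, measured 1.01, 0.748, 1.27 and 1.08 FPKM in CONTROL-VEH cultures and 0.671, 1.33, 1.33 and 0.335 FPKM in OGD-VEH. The Egr4 values of OGD-VEH spread to both sides of the controls, with 2 cultures above and 2 below all of them (log2 fold change -0.29, SE 0.42, padj = 0.655, limma). Behind the Egr4 values stand an estimated 15.4 to 63.1 reads per culture and behind those of Egr2 35.6 to 107, the fewest of the 10 genes.

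**Figure D2:**
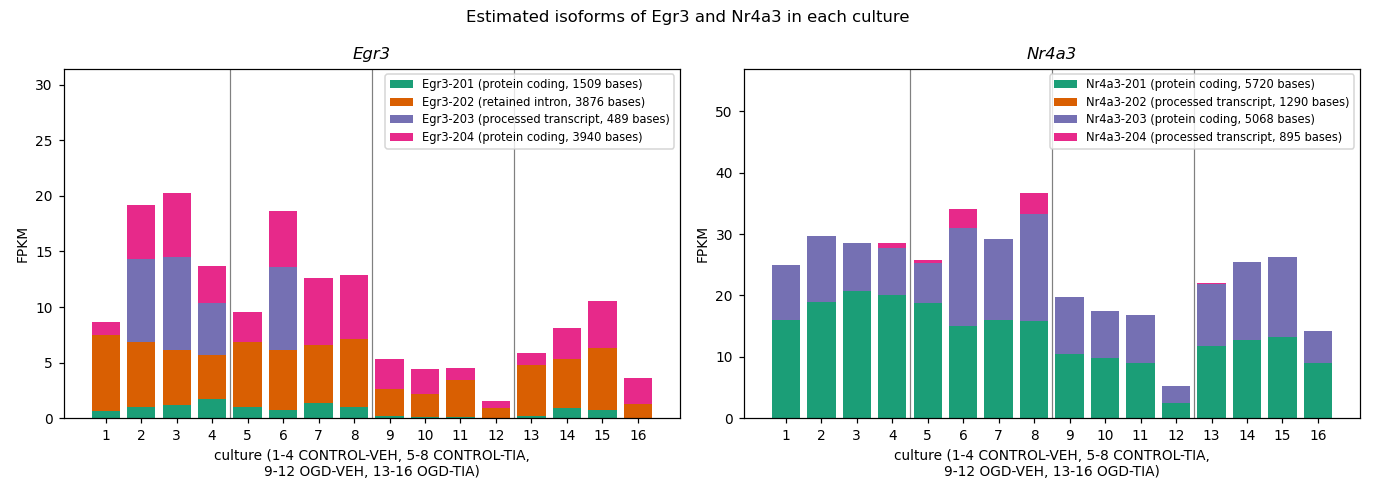
Estimated FPKM (y axis, bars from 0) of each isoform of Egr3 (left) and Nr4a3 (right), stacked, in cultures 1 to 16 (x axis, grouped as labelled). The short processed transcript Egr3-203 appears in cultures 2, 3, 4 and 6 at 4.6 to 8.35 FPKM and is at or near 0 elsewhere, and the coding Nr4a3-201 is lower in every OGD-VEH culture than in any control.

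None of the NR4A receptors, nuclear receptors that act without a known physiological ligand, was called. Nr4a3 (chr4:48045153-48086447, plus strand), the most abundant of these transcription factors in both control groups, measured 24.95, 29.8, 28.5 and 28.6 FPKM in CONTROL-VEH cultures and 19.7, 17.5, 16.9 and 5.23 FPKM in OGD-VEH. All 4 OGD-VEH cultures were below all controls, with OGD-VEH 12 far below the other OGD-VEH cultures. The log2 fold change was -1.07 (SE 0.39, 95% confidence interval -1.95 to -0.19, padj = 0.0918, limma), which was not called. It was called without OGD-VEH 9 (log2 fold change -1.26, padj = 0.0499, limma) and when the spread was estimated over all 16 cultures (padj = 0.0283, limma). Without OGD-VEH 12 the log2 fold change was -0.63 (padj = 0.0568, limma). The coding isoform Nr4a3-201 went from a mean of 19.0 ± 2.08 to 7.95 ± 3.68 FPKM (SD, n = 4) without overlap, whereas Nr4a3-203, of 656 codons, was at 8.77 ± 1.43 and 6.87 ± 2.85 FPKM with overlap.

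Nr4a1, the receptor most often used as a readout of recent activity, measured 6.03, 7.42, 5.74 and 7.02 FPKM in CONTROL-VEH cultures and 5.70, 9.55, 8.92 and 6.22 FPKM in OGD-VEH. OGD-VEH 10 and 11 lay above all controls and the other two did not (log2 fold change 0.18, SE 0.20, padj = 0.538, limma). Nr4a2, known for its part in dopamine neurons and also induced by activity in cortex, measured 8.35, 7.61, 6.70 and 10.8 FPKM in CONTROL-VEH cultures and 8.49, 8.46, 8.19 and 6.55 FPKM in OGD-VEH. OGD-VEH 12 lay just below the lowest CONTROL-VEH culture and the other OGD-VEH values of Nr4a2 lay within the control range (log2 fold change -0.06, 95% confidence interval -0.46 to 0.34, padj = 0.824, limma). Nr4a3, Nr4a1 and Nr4a2, each with 4 matches of the TGACG core, had log2 fold changes of -1.07, 0.18 and -0.06.

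Npas4 (chr19:4984355-4990316, minus strand), a bHLH-PAS factor that responds to calcium and promotes inhibitory synapses, measured 2.92, 3.72, 2.69 and 3.01 FPKM in CONTROL-VEH cultures and 2.19, 3.12, 3.21 and 1.74 FPKM in OGD-VEH. Cultures 9 and 12 lay below the controls and cultures 10 and 11 within them (log2 fold change -0.29, SE 0.23, padj = 0.402, limma). Arc, a capsid-like protein that drives AMPA receptor endocytosis, measured 1.89, 1.59, 1.64 and 1.29 FPKM in CONTROL-VEH cultures and 1.27, 3.16, 2.13 and 2.24 FPKM in OGD-VEH. OGD-VEH 10, 11 and 12 were above the CONTROL-VEH cultures and OGD-VEH 9 below them (log2 fold change 0.38, SE 0.28, padj = 0.359, limma).

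Homer1 (chr13:93299635-93405129, plus strand) had the highest mean summed FPKM of the 10 genes over the 16 cultures. By estimated reads it did not lead, with a median of 2544 per culture against 3222 for Nr4a3. Their longest isoforms are of similar length, at 5713 and 5720 bases. Homer1 measured 38.2, 46.9, 43.7 and 27.6 FPKM in CONTROL-VEH cultures and 30.2, 22.8, 29.7 and 18.2 FPKM in OGD-VEH. CONTROL-VEH 4 lay among the OGD-VEH cultures and the other controls above them (log2 fold change -0.63, SE 0.22, padj = 0.0867, limma). Homer1 makes long proteins that link metabotropic glutamate receptors to Shank, and short proteins, the Homer1a type, that lack the coiled coil and uncouple these links. The short type is the one induced by activity, and Homer1-204, with 186 codons, is of this type. Homer1-204 measured 4.02, 4.65, 4.08 and 2.43 FPKM in CONTROL-VEH cultures and 3.08, 4.87, 3.63 and 2.95 FPKM in OGD-VEH, with overlap (log2 fold change -0.05, SE 0.27, padj = 0.938, limma). Isoforms of 300 codons or more went from 21.998 ± 3.33 to 16.004 ± 3.48 FPKM (SD, n = 4), with overlap (lowest CONTROL-VEH culture 19.3, highest OGD-VEH culture 20.1 FPKM).

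The share of Homer1 FPKM held by isoforms of fewer than 250 codons was 41.3, 57.9, 39.2 and 30.1% in CONTROL-VEH and 33.6, 33.2, 42.7 and 35.5% in OGD-VEH, a difference of -5.91 percentage points (two-sided exact permutation test over 70 assignments, p = 0.429, adjusted p over the 4 comparisons made = 0.857). That share counts 8 isoforms, of which Homer1-208, Homer1-209, Homer1-210 and Homer1-211 are fragments of 772 to 815 bases that end near the long forms and swung between 0 and 9.23 FPKM from culture to culture. A share restricted to the 4 isoforms that end first (Homer1-204, Homer1-205, Homer1-206 and Homer1-212), chosen after the values were seen, was 15.2, 16.6, 13.4 and 11.9% in CONTROL-VEH and 19.4, 32.2, 26.6 and 30.8% in OGD-VEH, with every OGD-VEH culture higher than every CONTROL-VEH culture. The difference was 12.99 percentage points (exact permutation p = 0.0286, the smallest this design allows, adjusted p over the 4 comparisons = 0.114). Counted as reads, by multiplying FPKM by length, that difference was 10.6 percentage points (exact permutation p = 0.0571). In CONTROL-TIA the restricted share of FPKM was 20.6, 16.2, 11.2 and 13.4%, so that CONTROL-TIA 5 lay above OGD-VEH 9. The FPKM of these 4 isoforms was 5.69 ± 1.85 in CONTROL-VEH and 6.68 ± 1.13 in OGD-VEH (SD, n = 4). The denominator of the restricted share, the Homer1 sum, still holds the 5 short isoforms that end later (Homer1-207 to Homer1-211). Together these 5 averaged 11.4 ± 5.94 FPKM over the CONTROL-VEH cultures. Over the OGD-VEH cultures they averaged 2.53 ± 2.33 FPKM (SD, n = 4), without overlap. Their part in the higher share and in the lower Homer1 sum was not tested.

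**Figure D3:**
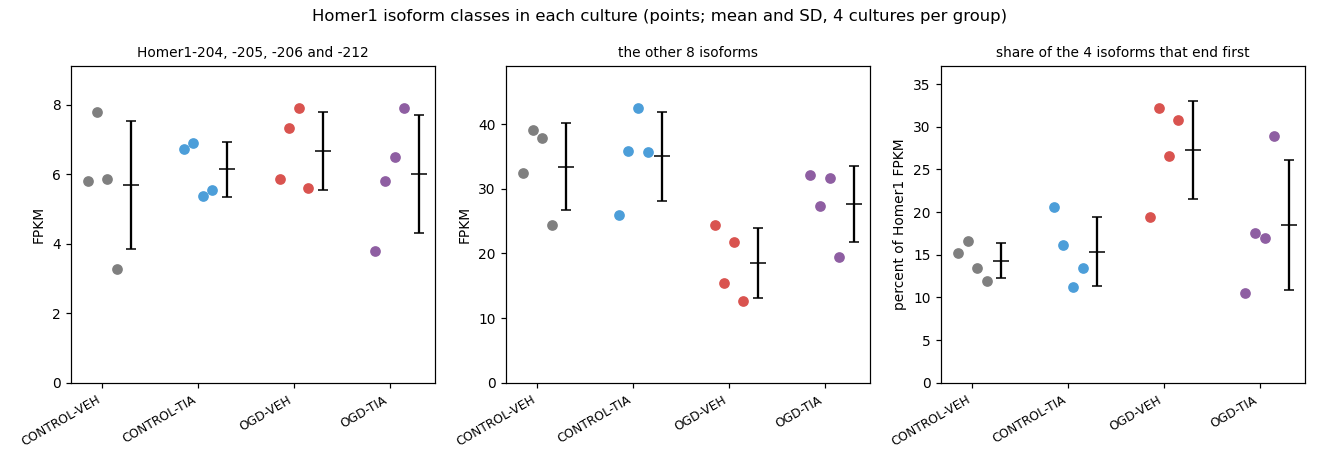
Homer1 in each culture (points, with mean and SD of 4 cultures): FPKM of the 4 isoforms that end first, FPKM of the other 8 isoforms, and the percent of Homer1 FPKM in the first class. The first class overlaps between all groups. The second has its lowest mean in OGD-VEH, where its values overlap those of OGD-TIA. The share is higher in each OGD-VEH culture (19.4 to 32.2%) than in each CONTROL-VEH culture (11.9 to 16.6%), but overlaps CONTROL-TIA (11.2 to 20.6%).

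Cell type markers differed between the groups as well. The mean log2(FPKM + 0.1) of 10 neuron markers was 7.04 to 7.20 in CONTROL-VEH and 6.89, 6.23, 6.23 and 5.64 in OGD-VEH cultures 9 to 12, with 1 of the 10 markers, Syt1, called lower (beside 1.68% of all genes) and 6 lower in every OGD-VEH culture than in any CONTROL-VEH culture (beside 9.95%). Of 7 neural progenitor markers 2, Nes and Vim, were called higher, with a summed level of 504 to 617 FPKM in CONTROL-VEH cultures and 894 to 2997 FPKM in OGD-VEH, and of 7 oligodendrocyte lineage markers tested 4 were called higher (177 to 213 against 244 to 676 FPKM), where 2.40% of all genes were. Mbp, a myelin protein, went the other way without overlap (log2 fold change -0.88, padj = 0.0493, limma), under the threshold of size. Of 9 astrocyte markers none was called (769 to 1642 against 1034 to 2607 FPKM). The 8 microglia markers summed to 0.522 to 3.03 FPKM over all 16 cultures, with Aif1 the only one of 8 above the filter and Cx3cr1 at 0.02 FPKM or less, and of 9 vascular and fibroblast markers 2 were tested and none was called (7.36 to 18.4 FPKM over all 16 cultures). The labelled neuronal cultures thus held neuron markers well above 0 in all 16 libraries, beside glial and progenitor markers. When every culture was shifted so that the neuron markers had the same mean, which moved the median log2 fold change of all genes from 0.10 to 0.96, Egr3 stayed lower (-1.13, padj = 0.0256, limma), Nr4a3 was at -0.22, Homer1, Npas4, Egr4 and Nr4a2 turned positive, and Arc (1.24), Egr1 (1.71), Egr2 (1.26) and Nr4a1 (1.04) were called higher. After that shift 6538 of the 16346 genes tested (40.0%) were called. The part of cell composition in these values was not tested.

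TIA without OGD was compared next, as CONTROL-TIA against CONTROL-VEH. None of the 10 genes was called, beside 0% of the 16170 genes tested, of which 621 (3.84%) had an unadjusted p under 0.05. The log2 fold changes of the 10 genes lay between -0.29 for Egr1 and 0.16 for Nr4a3, all with padj = 0.999 (limma). The widest 95% confidence interval was that of Egr3 (-0.85 to 0.52) and the narrowest that of Nr4a1 (-0.31 to 0.20). CONTROL-TIA cultures measured, for Egr3, 9.57, 18.6, 12.6 and 12.9 FPKM, for Nr4a3, 25.8, 34.0, 29.1 and 36.8 FPKM, and for Npas4, 2.79, 3.27, 3.36 and 2.92 FPKM. All 10 genes overlapped between the groups, where 2.06% of all genes did not.

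OGD was then compared within the TIA arm, as OGD-TIA against CONTROL-TIA, to ask whether the pattern recurred. None of the 10 genes was called, beside 0% of the 16242 genes tested, of which 3174 (19.5%) had an unadjusted p under 0.05. The study, with DESeq2 at the same thresholds, reported called genes in this comparison, so that 0% holds for the fit used here. Among the 10 genes Npas4, Egr3 and Nr4a3 had an unadjusted p under 0.05, all lower, as 7.92% of all genes had. Npas4 measured 1.91, 2.04, 2.20 and 1.98 FPKM in OGD-TIA, and every culture stood below every CONTROL-TIA and CONTROL-VEH culture, as 6.72% of all genes did against CONTROL-TIA. Its log2 fold change was -0.58 (SE 0.12, unadjusted p = 0.00144, padj = 0.111, limma), under the threshold of size as well. The median log2 fold change of the 10 genes was -0.17, beside 0.04 for all genes. Of 29 isoforms of the 10 genes tested none was called, beside 0.0305% of 52476. The neuron markers had a median of -0.46 in this comparison, with none of 10 called and 4 lower in every OGD-TIA culture than in any CONTROL-TIA culture (beside 6.72% of all genes), and their part in the result was not tested.

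Egr3 measured 5.89, 8.16, 10.5 and 3.63 FPKM in OGD-TIA, with OGD-TIA 15 inside the CONTROL-TIA range and the other cultures below it (log2 fold change -0.98, SE 0.33, unadjusted p = 0.0175, padj = 0.189, limma). Nr4a3 measured 22.0, 25.4, 26.3 and 14.1 FPKM, with OGD-TIA 15 just above the lowest CONTROL-TIA culture (log2 fold change -0.54, SE 0.21, unadjusted p = 0.0323, padj = 0.221, limma). Homer1 measured 36.0, 33.2, 38.2 and 27.4 FPKM, overlapping CONTROL-TIA (log2 fold change -0.29, padj = 0.320, limma). Homer1-204 was at 2.23, 3.18, 3.38 and 3.57 FPKM against 3.99, 4.30, 3.18 and 3.84 FPKM in CONTROL-TIA.

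The genes above controls in 3 OGD-VEH cultures were not so in OGD-TIA. Egr1 measured 7.71, 8.69, 8.57 and 9.98 FPKM in OGD-TIA and 8.03, 7.69, 11.5 and 6.08 FPKM in CONTROL-TIA, all OGD-TIA values inside the CONTROL-TIA range (log2 fold change 0.10, 95% confidence interval -0.33 to 0.53, padj = 0.791, limma). Arc measured 1.43, 1.58, 1.53 and 1.78 FPKM in OGD-TIA and 2.22, 1.59, 1.53 and 1.24 FPKM in CONTROL-TIA, and the OGD-TIA values lay inside the CONTROL-TIA range. Egr2 measured 0.793, 1.10, 0.787 and 0.546 FPKM in OGD-TIA, on both sides of the narrow CONTROL-TIA range of 0.836 to 0.927 FPKM. For Nr4a1 (4.44, 5.77, 5.47 and 6.63 FPKM), Nr4a2 (9.34, 8.92, 7.87 and 8.14 FPKM) and Egr4 (0.969, 0.999, 1.02 and 0.832 FPKM) the OGD-TIA cultures overlapped CONTROL-TIA, with padj from 0.353 to 0.637 (limma).

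**Figure D4:**
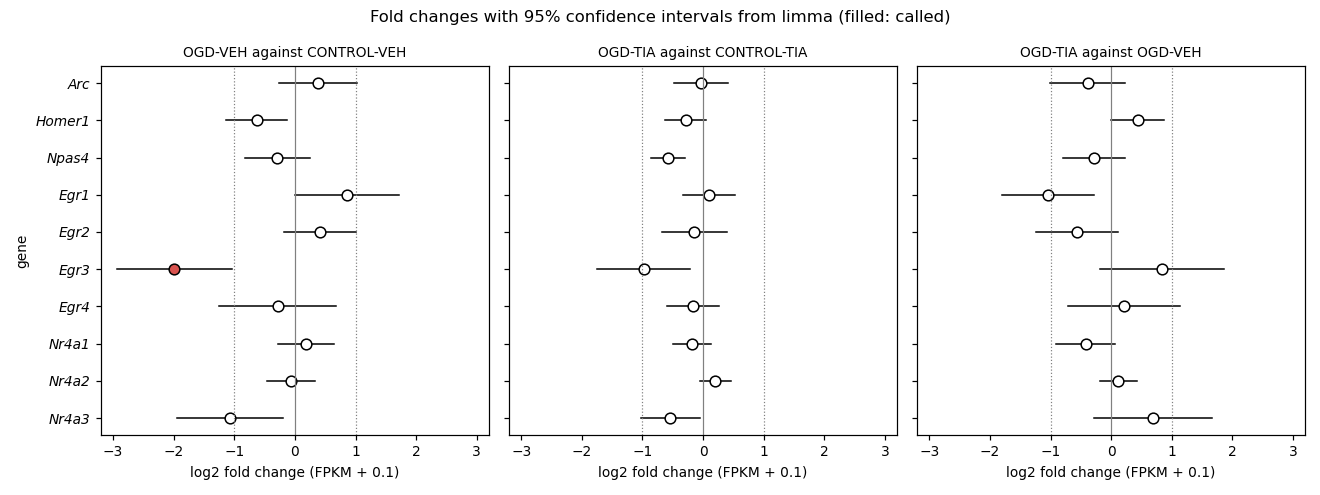
Log2 fold change of FPKM + 0.1 (x axis) of each of the 10 genes with its 95% confidence interval from limma in 3 comparisons; dotted lines mark 1 and -1, and a filled point is called. Egr3 in OGD-VEH against CONTROL-VEH (-1.99) is the only filled point, and in OGD-TIA against OGD-VEH the interval of Egr1 (-1.81 to -0.29) lies below 0.

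OGD-TIA against OGD-VEH, the effect of TIA after OGD, gave no call among the 10 genes, beside 0% of the 16351 genes tested, of which 1293 (7.91%) had an unadjusted p under 0.05. Egr1 was the 1 gene of the 10 with an unadjusted p under 0.05, lower as 5.04% of all genes were, and its mean was 8.74 ± 0.934 FPKM in OGD-TIA and 19.9 ± 9.98 FPKM in OGD-VEH (SD, n = 4), a log2 fold change of -1.05 (SE 0.33, unadjusted p = 0.0130, padj = 0.551, limma). The groups overlapped at OGD-VEH 9 (9.58 FPKM) and OGD-TIA 16 (9.98 FPKM), and the other 9 genes overlapped too, where 3.82% of all genes did not. With cultures weighted by their quality the difference passed the thresholds (-1.37, padj = 0.0453, limma), and without OGD-VEH 10 it was -0.75 (padj = 0.720, limma). Arc (-0.39), Egr2 (-0.56), Nr4a1 (-0.42) and Npas4 (-0.28) had negative log2 fold changes, and Egr3 (0.84), Nr4a3 (0.69), Homer1 (0.44), Egr4 (0.21) and Nr4a2 (0.12) positive ones, all with padj of 0.551 or more (limma). Without OGD-VEH 12 Egr3 was at 0.46 and Nr4a3 at 0.25 (padj = 0.870 for both, limma). The neuron markers had a median log2 fold change of 0.51 in the same comparison, with none of 10 called, and the neural progenitor markers one of -0.61, with none of 7 called. Their part in the result was not tested. The share of the 4 Homer1 isoforms that end first was 10.6, 17.5, 17.0 and 28.9% in OGD-TIA, 8.77 percentage points below OGD-VEH with overlap (exact permutation p = 0.114, adjusted p over the 4 comparisons = 0.229).

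Whether OGD acted differently with and without TIA was tested by the interaction over all 16 cultures. None of the 10 genes was called, beside 0% of the 16313 genes tested, of which 988 (6.06%) had an unadjusted p under 0.05. The log2 differences were 1.01 for Egr3 (SE 0.57, 95% confidence interval -0.21 to 2.22), -0.76 for Egr1 (SE 0.45, 95% confidence interval -1.71 to 0.20) and between -0.55 and 0.53 for the other 8 genes, with padj of 0.722 or more (limma). The Egr3 value is that of the sum with Egr3-203, listed at 4.6 to 8.35 FPKM in CONTROL-VEH 2, 3 and 4. Among the CONTROL-TIA cultures it was above 0.003 FPKM only in CONTROL-TIA 6 (7.46 FPKM). Without Egr3-203 the Egr3 means were 10.3 FPKM in CONTROL-VEH, 3.97 in OGD-VEH, 11.5 in CONTROL-TIA and 7.05 in OGD-TIA. A difference between the arms was therefore not detectable for any of the 10 genes, and the intervals for Egr1 and Egr3 include differences of more than 1 in size.

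Over both arms together, with TIA as a term in the fit and 8 OGD against 8 control cultures, Egr3 was called, beside 4.78% of the 16313 genes tested and 1.99% called as lower (log2 fold change -1.48, SE 0.30, padj = 0.00386, limma). This fit uses the same cultures as the comparisons above. The call held in all 16 fits that left out 1 culture. With the threshold on padj alone, which 32.1% of all genes passed and 13.4% passed as lower, Nr4a3 (-0.81, SE 0.24, padj = 0.0192), Npas4 (-0.43, SE 0.13, padj = 0.0201) and Homer1 (-0.46, SE 0.14, padj = 0.0231, all limma) were lower as well, and no gene of the 10 was higher. Egr1, at 0.48, had padj = 0.132, and Nr4a1, at 0.00, padj = 0.988 (limma). After the shift to equal neuron markers Egr3 was at -0.83 (padj = 0.00667, limma), which no longer passed the threshold of size, and Homer1 and Npas4 turned positive.

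The wider activity program was described with lists of other genes. These lists were written with earlier results of these data known, so their shares and medians are descriptions and not tests. Of 25 other rapid primary response genes 24 were tested in OGD-VEH against CONTROL-VEH, and 5 were called higher (beside 2.40% of all genes) and none lower, with a median log2 fold change of 0.48 beside 0.10 for all genes. The 4 with the smallest p were Atf3, a stress-induced repressor (2.54, SE 0.53, padj = 0.0367), Fos, the AP-1 subunit (2.12, SE 0.44, padj = 0.0371), Btg2, an antiproliferative factor (1.27, SE 0.29, padj = 0.0437), and Gadd45b, which acts in DNA damage and demethylation (1.93, SE 0.46, padj = 0.0447, all limma). Each of these was higher in all 4 OGD-VEH cultures than in any CONTROL-VEH culture, as 12.7% of all genes were. The fifth call, Fbxo33 (1.07, SE 0.27, padj = 0.0485, limma), was named after its values were seen. In OGD-TIA against CONTROL-TIA none of 24 was called, beside 0% of the 16242 genes tested. There the same 4 genes had log2 fold changes of 1.27, 0.87, 0.73 and 0.68 in that order (padj from 0.144 to 0.235, limma). They were again higher without overlap, as 9.51% of all genes were.

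Of 24 late effector genes of activity, 22 were tested in OGD-VEH against CONTROL-VEH. The called higher were 3, namely Ptgs2, the inducible cyclooxygenase (3.43, SE 0.68, padj = 0.0347), Dusp5, an ERK phosphatase (1.16, SE 0.23, padj = 0.0347), and Serpinb2 (1.76, SE 0.44, padj = 0.0465, all limma), of which the last lies outside the naming rule and was chosen after its values were seen. The 1 called lower was Sst, the neuropeptide somatostatin (-2.14, SE 0.48, padj = 0.0416, limma). Plat, tissue plasminogen activator, had 0.94 (SE 0.22, padj = 0.0437, limma), under the threshold of size. The shares of all genes called were 2.40% higher and 1.68% lower, and the median of the list was -0.17. In the TIA arm none of 20 tested was called, beside 0% of all genes.

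Of 28 upstream kinases and promoter-binding factors, all tested, 1 was called higher and 2 lower in OGD-VEH against CONTROL-VEH, beside 2.40% and 1.68% of all genes, with a median of -0.09. Crem, a modulator of the cyclic AMP response element, was higher (1.19, SE 0.24, padj = 0.0360), and Mef2c, a neuronal factor at activity-regulated promoters, was lower (-1.90, SE 0.39, padj = 0.0367, both limma). Camk4, the nuclear calcium-dependent kinase that acts on CREB, was the other one lower (-1.15, SE 0.30, padj = 0.0499, limma) and was named after its values were seen. Elk4, an SRF partner (0.89, SE 0.18, padj = 0.0347), and Crtc2, a CREB coactivator (0.61, SE 0.12, padj = 0.0339, both limma), were under the threshold of size. In the TIA arm none of 28 was called, beside 0% of all genes.

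Of 19 protein partners of the 10 genes, all tested, none was called higher and 3 were called lower in OGD-VEH against CONTROL-VEH, beside 1.68% of all genes, with a median of -0.48. Shank1, the scaffold at the other end of long Homer1 links (-1.15, SE 0.24, padj = 0.0367), Itpr1, the calcium release channel bound by Homer1 (-1.51, SE 0.36, padj = 0.0444), and Rxrg, a retinoid receptor that pairs with Nr4a1 and Nr4a2 (-1.03, SE 0.24, padj = 0.0437), were lower in all 4 OGD-VEH cultures than in any CONTROL-VEH culture, as 9.95% of all genes were. Sh3gl3, an endophilin that binds Arc, had -0.64 (SE 0.15, padj = 0.0448, all limma). In the TIA arm none of 19 was called, beside 0% of all genes, and Shank1 and Rxrg were at -0.54 and -0.80 (padj = 0.116 for both, limma).

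**Figure D5:**
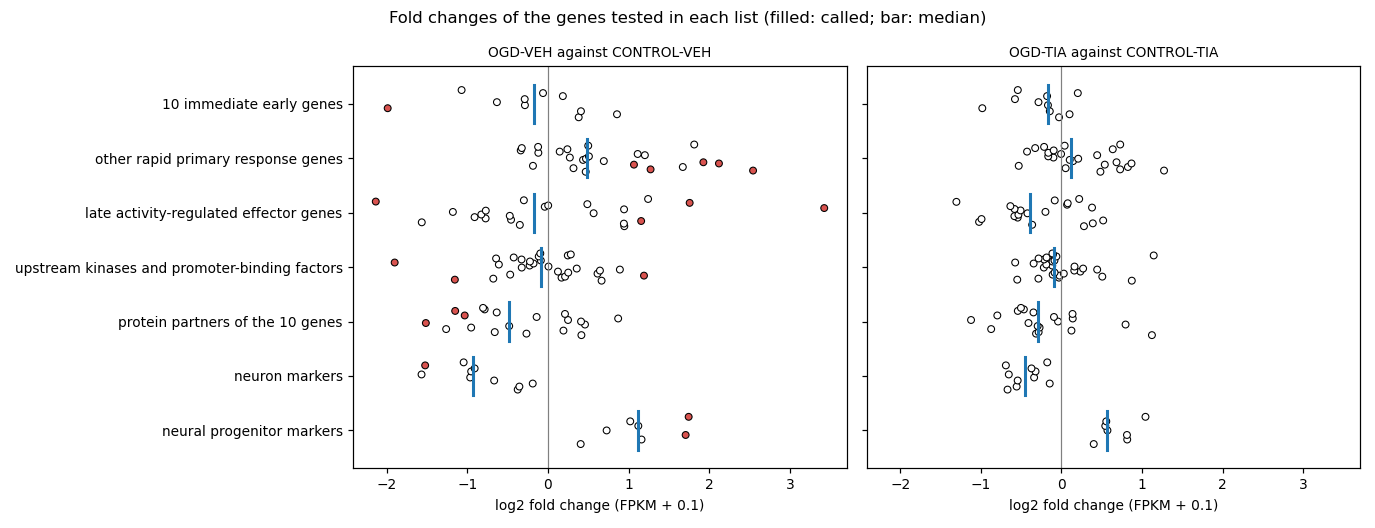
Log2 fold change of FPKM + 0.1 (x axis) of each gene tested in the 10 immediate early genes, 4 lists of related genes and 2 marker lists (rows), for OGD in the vehicle arm (left) and the TIA arm (right); filled points are called and blue bars mark list medians. In the vehicle arm the medians run from -0.93 for neuron markers to 1.12 for neural progenitor markers, with 0.48 for other rapid primary response genes. No point is filled in the TIA arm, where 0% of the 16242 genes tested were called.

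The genes whose pattern over the 16 cultures was most like that of a member were found among 13245 other protein-coding genes of at least 0.5 FPKM, by the root mean square difference of centred log2(FPKM + 0.1). This is a description over cultures that share their groups. For Arc these were Utp6 (0.17), Ier2 (0.17), itself a rapid primary response gene, and Gm4737 (0.18), where Arc's own spread was 0.33. For Npas4 they were Tchh (0.17), C2cd2 (0.20) and Neto1 (0.21), with a spread of 0.32. For Egr1 they were Ino80 (0.30), Zfp263 (0.32) and Dusp10 (0.33), with a spread of 0.61. For Nr4a1 they were Dot1l (0.13), Lars2 (0.15) and BC005561 (0.16), with a spread of 0.25, and for Homer1 Foxk2 (0.12), Atp2b1 (0.13), a plasma membrane calcium pump, and Dgkh (0.14), with a spread of 0.37.

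The same was done for Egr3 and Nr4a3 after their values were seen. Nearest to Egr3 were Map1b (0.30), a neuronal microtubule protein, Epha6 (0.32) and Atp2b4 (0.32), with an Egr3 spread of 0.96. Map1b measured 661 FPKM in CONTROL-VEH, 639 in CONTROL-TIA, 192 in OGD-VEH and 381 in OGD-TIA on average. Nearest to Nr4a3 were Npr3 (0.13), Kcnv1 (0.14), a potassium channel subunit, and Plppr4 (0.15), with a spread of 0.64. Kcnv1 measured 11.4, 11.6, 5.57 and 8.16 FPKM in the same groups.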

How the data were processed

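RNA of 16 primary cortical neuron cultures, 4 per group, was analysed, and p-values measure the spread between these cultures. Per the labels and methods, the authors made stranded mRNA libraries with 50-base single-end reads, checked them with FastQC, mapped them with STAR to GRCm38 with Ensembl 92 and estimated isoforms with eXpress. Versions are not given in the sources used here. The deposited values are FPKM per isoform after TMM scaling by the authors; the unit comes from the name of the table. Estimates for isoforms that share exons depend on each other, and reads of short fragments can weigh heavily in a summed FPKM.

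Of 135276 lines, 74 without an identifier were left out. FPKM was summed per gene symbol, and isoform types, lengths and codons were taken from GENCODE M21 (99.82% of isoforms found). Depth was estimated from the values of 1 read on genes with a single isoform. Whole reads were not recovered, so no count test was used. Genes averaging 0.5 FPKM or more over the cultures compared were tested with limma 3.58.1 in R 4.3.3 (trend on the mean) on log2(FPKM + 0.1), with Benjamini-Hochberg adjustment over all genes tested, and called where padj did not exceed 0.05 and the fold change was 1 or more in size on the log2 scale. Pairs of groups were fitted on their 8 cultures, and the additive and interaction fits on all 16. Homer1 shares were compared by exact permutation tests (scipy). The fits were tested on simulated data.

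The 10 genes, the lists and the motifs were chosen with earlier results of these data known. Named genes were the 10, at most the 4 of each list with the smallest p in OGD-VEH against CONTROL-VEH, and the 3 genes nearest in pattern to Arc, Npas4, Egr1, Nr4a1 and Homer1; exceptions are marked. Groups came from the sample labels, and no 2 cultures had identical values. Promoter sequences were from RefSeq (GRCm38.p6). Only bases before annotated exons were printed, except for Npas4, where 25 bases within annotated exons were printed.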

Additional observations from a re-analysis of the deposited data

Results flagged for a closer look

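Nr4a2 in OGD-VEH 12 was 6.55 FPKM, while the other 3 OGD-VEH cultures lay between 8.19 and 8.49 FPKM, so that the gap to the nearest was 0.843 of the range of the group, above Dixon's 95% critical value for 4 samples. This was the 1 flag among 44 groups of values examined, and chance flags about 1 group in 20. OGD-VEH 12 was also the OGD-VEH culture with the lowest Egr3, Egr4, Npas4, Nr4a3, Homer1 and neuron marker values; the part of the markers in the Nr4a2 value was not tested.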

How the results depend on the processing

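No paired analysis was made, because the cultures are numbered 1 to 16 across the groups, share no replicate numbers and have no label of a shared preparation. Cultures 4, 8, 12 and 16 each had the highest summed astrocyte markers of their group, at 1642, 890, 2607 and 1981 FPKM. Whether preparations were shared across groups is not stated, and their part in the unpaired p-values was not tested. Genes called in OGD-VEH against CONTROL-VEH numbered 668, and 36 without a filter, 6538 after the shift to neuron markers, 1929 with quality weights, 1019 with isoforms weighted by length, 1390 with all 16 cultures in 1 fit, and 1 to 2186 with 1 culture left out. Members called there numbered 1, and 0 without a filter, 5 after the shift, 2 with weights, 2 in the fit of all 16, and 0 to 3 with 1 culture left out; 2186 and 3 came without OGD-VEH 9, and 1 to 71 genes and no member without any other culture. Genes called in OGD-TIA against CONTROL-TIA numbered 0, and 7 without a filter, 80 with weights, 51 weighted by length, 1 in the fit of all 16, and 0 to 16 with 1 culture left out. In CONTROL-TIA against CONTROL-VEH they were 4 without a filter. In OGD-TIA against OGD-VEH they were 4 without a filter, 408 with weights (1 member, Egr1) and 0 to 2 with 1 left out. Over both arms they numbered 780, and 394 with a pseudocount of 1 and 3485 after the shift. For the interaction they were 3 without a filter, 101 with weights and 0 to 1 with 1 left out. The cause of these changes was not tested.

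Directions reversed only in values that were not called, though Homer1 and Npas4 over both arms had padj of at most 0.05. After the shift to neuron markers, log2 fold changes in OGD-VEH against CONTROL-VEH were Homer1 0.22, Npas4 0.57, Egr4 0.57 and Nr4a2 0.79; in OGD-TIA against CONTROL-TIA, Arc 0.42, Homer1 0.16, Egr2 0.30, Egr4 0.28 and Nr4a1 0.27; in CONTROL-TIA against CONTROL-VEH, Egr2 0.018; in OGD-TIA against OGD-VEH, Egr4 -0.17 and Nr4a2 -0.27; over both arms, Homer1 0.19, Npas4 0.22 and Egr4 0.42; for the interaction, Homer1 -0.060, Egr4 -0.29 and Nr4a2 -0.14. With quality weights they were Egr4 0.20 and Nr4a2 0.068 (OGD-VEH against CONTROL-VEH), Egr2 0.019 (OGD-TIA against CONTROL-TIA), Arc -0.066 (CONTROL-TIA against CONTROL-VEH), Egr4 -0.19 (OGD-TIA against OGD-VEH) and Egr4 -0.32 (interaction). In CONTROL-TIA against CONTROL-VEH, weighting by length gave Egr2 0.0047 and Egr3 0.14, and leaving out Egr3-203 gave Egr3 0.16. Median-ratio scaling gave Nr4a1 -0.056 over both arms.

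With 1 culture left out, signs turned for Egr4 (-0.50 to 0.069) and Nr4a2 (-0.16 to 0.066) in OGD-VEH against CONTROL-VEH, for Arc (-0.15 to 0.12), Egr1 (-0.037 to 0.27) and Egr2 (-0.29 to 0.0068) in OGD-TIA against CONTROL-TIA, for Arc (-0.13 to 0.14), Homer1 (-0.070 to 0.19), Npas4 (-0.053 to 0.10), Egr2 (-0.035 to 0.012), Egr4 (-0.040 to 0.19) and Nr4a1 (-0.12 to 0.0047) in CONTROL-TIA against CONTROL-VEH, for Egr4 in OGD-TIA against OGD-VEH (-0.15 to 0.43) and the interaction (-0.24 to 0.34), and for Nr4a1 over both arms (-0.067 to 0.064). The Homer1 share of isoforms under 250 codons differed by -5.91, -0.80, 3.04 and 8.15 percentage points in the 4 comparisons, in the order OGD-VEH against CONTROL-VEH, OGD-TIA against CONTROL-TIA, CONTROL-TIA against CONTROL-VEH and OGD-TIA against OGD-VEH. With 1 culture left out it ran from -9.92 to -0.66, -4.02 to 2.16, -0.96 to 8.30 and 4.93 to 11.1. As FPKM times length it was 1.72, 0.44, 0.48 and -0.81. The 4 isoforms that end first gave 12.99, 3.14, 1.08 and -8.77 as FPKM and 10.6, 2.10, 0.88 and -7.61 as FPKM times length; both were chosen after seeing the data. Egr4, Egr2 and Arc rest on the fewest reads.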
